A study of Homo sapiens with 4 samples.

Results

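The genes described here are receptors for adrenaline and noradrenaline and the proteins that carry their signal to cyclic AMP: the alpha-2 receptors ADRA2A and ADRA2C, the beta-1 receptor ADRB1, the inhibitory G protein alpha subunits GNAI1, GNAI2 and GNAI3, and the adenylyl cyclases ADCY3, ADCY6 and ADCY9. They were chosen by symbol, as 9 of the 19583 genes named by 1 or more probe sets, and all 17 of their probe sets among 39464 are shown. RNA came from LNCaP, an androgen-responsive human prostate tumor cell line, grown in regular RPMI medium and seeded overnight before extraction. The 2 arrays labelled LNCap ERG held cells transduced with a lentivirus for the ETS transcription factor ERG together with a red fluorescent protein, and the 2 arrays labelled LNCap Vector held cells given the same lentivirus with the fluorescent protein alone. Both groups therefore carried a lentiviral insertion and the fluorescent protein. The labels do not say if replicate arrays stem from independent infections or dishes of cells, and errors and p-values thus cover no more than array-to-array spread, possibly technical in origin.

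As background, alpha-2 receptors couple to Gi proteins, whose alpha subunits inhibit adenylyl cyclase and so lower cyclic AMP, while beta receptors couple to Gs, which stimulates the cyclase. Cyclic AMP acts mainly through protein kinase A, which phosphorylates the transcription factor CREB. Receptor kinases and arrestins shut the receptors off, and RGS proteins speed up the return of G alpha to its resting state. Prostate stroma is richly supplied with sympathetic nerves that release noradrenaline, and a rise in cyclic AMP is known to give LNCaP cells a neuroendocrine form.

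ADRA2A, which is the alpha-2A receptor, and GNAI1 were the members with every probe set higher in both LNCap ERG arrays than in both LNCap Vector arrays. GNAI3 and ADRB1 had their values on the opposite side or overlapping, and ADRA2C, GNAI2 and ADCY6 overlapped between the groups. The members were proposed with this comparison already seen, so their values are given as a description with no p for any one of them.

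The study asked what forced expression of ERG changes in prostate cancer cells, and ERG is a transcription factor that binds a GGAA core. The 250 bases before the start of transcription are therefore shown for the members with higher values at every probe set, and for GNAI3, the member whose window held the longer ETS consensus. They are RefSeq sequences of GRCh38.p14, all on the plus strand, written 5′ to 3′ with GGAA on either strand, or the longer CCGGAAGT, in capitals. ADRA2A lies at chr10:111076779-111077028, GNAI1 (the first of its 2 starts) at chr7:80134581-80134830 and GNAI3 at chr1:109548365-109548614.
ADRA2A: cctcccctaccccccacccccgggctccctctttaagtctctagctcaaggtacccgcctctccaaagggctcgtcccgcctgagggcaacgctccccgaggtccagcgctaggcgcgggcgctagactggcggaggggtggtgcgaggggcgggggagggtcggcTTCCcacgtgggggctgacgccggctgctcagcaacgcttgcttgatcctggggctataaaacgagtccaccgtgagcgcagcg
GNAI1: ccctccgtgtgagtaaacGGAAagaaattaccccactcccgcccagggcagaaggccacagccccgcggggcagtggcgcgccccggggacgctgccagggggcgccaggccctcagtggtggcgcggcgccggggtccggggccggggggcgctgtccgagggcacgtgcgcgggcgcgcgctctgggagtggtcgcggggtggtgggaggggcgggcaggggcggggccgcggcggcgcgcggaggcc
GNAI3: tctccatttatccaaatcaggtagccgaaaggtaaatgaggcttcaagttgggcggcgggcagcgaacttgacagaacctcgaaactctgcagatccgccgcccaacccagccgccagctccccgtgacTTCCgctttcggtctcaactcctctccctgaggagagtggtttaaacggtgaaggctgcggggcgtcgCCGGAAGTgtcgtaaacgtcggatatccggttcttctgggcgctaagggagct

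The ADRA2A and GNAI1 windows shown each held 1 GGAA core, counting both strands, and the GNAI3 window held 2, of which 1 lies within CCGGAAGT. The window of the other GNAI1 start, not shown, also held 2. The table used held 11 such windows for 7 members, all but ADCY6 and ADCY9. GGAA or its reverse complement TTCC occurred in 10 of the 11, and in 92.7% of all 35116 windows of the same length. CCGGAAGT or ACTTCCGG, which contain that core, occurred in 1 of the 11 and in 3.42% of all windows. The cyclic AMP response element TGACGTCA, its own reverse complement, occurred in 0 of the 11 and in 1.65% of all. These are matches of letters in a window and say nothing of binding.

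Median intensities were 14.0 to 14.4 per array on the linear scale. Genes of other organs, listed as unlikely in prostate cells (53 probe sets of 27 genes), had a 95th percentile of 5.11 on the log2 scale, called the background level here. Every other-organ probe set above it was one of MBP, and without that gene the percentile was 4.18, a value chosen after seeing the data. All 8 measured luminal prostate markers lay above 5.11 in both groups, KLK3 and FOLH1 among them, as did 1 of 7 neuroendocrine markers (ENO2) and 1 of 9 basal, stromal, endothelial and immune markers (COL1A1). The summed intensity of the last list was 8.95 to 9.01 in the LNCap ERG arrays and 8.64 to 8.66 in the LNCap Vector arrays on the log2 scale. That of the neuroendocrine list was 8.49 to 8.51 and 8.23 to 8.37, and that of the luminal list 14.77 in each LNCap ERG array and 14.80 to 14.83 in the LNCap Vector arrays. COL1A1 and ENO2 were each the brightest gene of their list, with log2 fold changes of 0.38 and 0.28, both without overlap. Probe sets without overlap numbered 3 higher and 4 lower of 14 for the neuroendocrine list, SYP (-0.45, below the background level) among the latter. They numbered 3 and 3 of 26 for the basal, stromal, endothelial and immune list, and 1 and 7 of 21 for the luminal list. Of all 39464 probe sets, 18.9% were higher and 20.1% lower without overlap. At their brightest probe sets KLK2 had -0.29, TMPRSS2 -0.20, KLK3 -0.13 and FOLH1 0.08. The part of these differences in the results below was not tested. The 4 ERG probe sets lay below the background level in every array, at 2.65 to 3.58, with log2 fold changes of -0.24 to 0.12. ERG therefore does not check the labels.

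Of the 17 member probe sets, 10 lay above the background level in both groups and 1 more in LNCap ERG alone, and 12 were above the lower percentile of 4.18 in both groups. No member probe set passed an adjusted p of 0.05 by limma, and neither did any of the 39464 (0%). With trended and robust moderation, an alternative setting of limma, 1 of the 17 did, where 0.223% of all probe sets passed. At an unadjusted p under 0.05, limma gave 3 member probe sets higher and 1 lower, where 4.3% of all probe sets were higher and 4.41% lower (1695 and 1739). By the methods' t-test the members also numbered 3 and 1, against 1440 and 1455 over all probe sets (3.65% and 3.69%), of which none passed after Benjamini-Hochberg adjustment. Both arrays of one group lay beyond both of the other at 10 member probe sets, 5 higher and 5 lower in LNCap ERG. Over all probe sets 18.9% were higher and 20.1% lower in this sense. Among the 10 member probe sets above the background level in both groups, 4 were higher and 2 lower, where 21.1% and 25.6% of all such probe sets were. The median log2 fold change was 0.002 over the members and -0.001 over all probe sets, and the median size without regard to sign was 0.14 and 0.09. The members were proposed with this comparison seen, so these counts and medians describe them and cannot show an excess over all probe sets. In bulk RNA, a difference in the share of cells that express a gene and a difference in RNA per cell cannot be told apart.

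**Figure D1:**
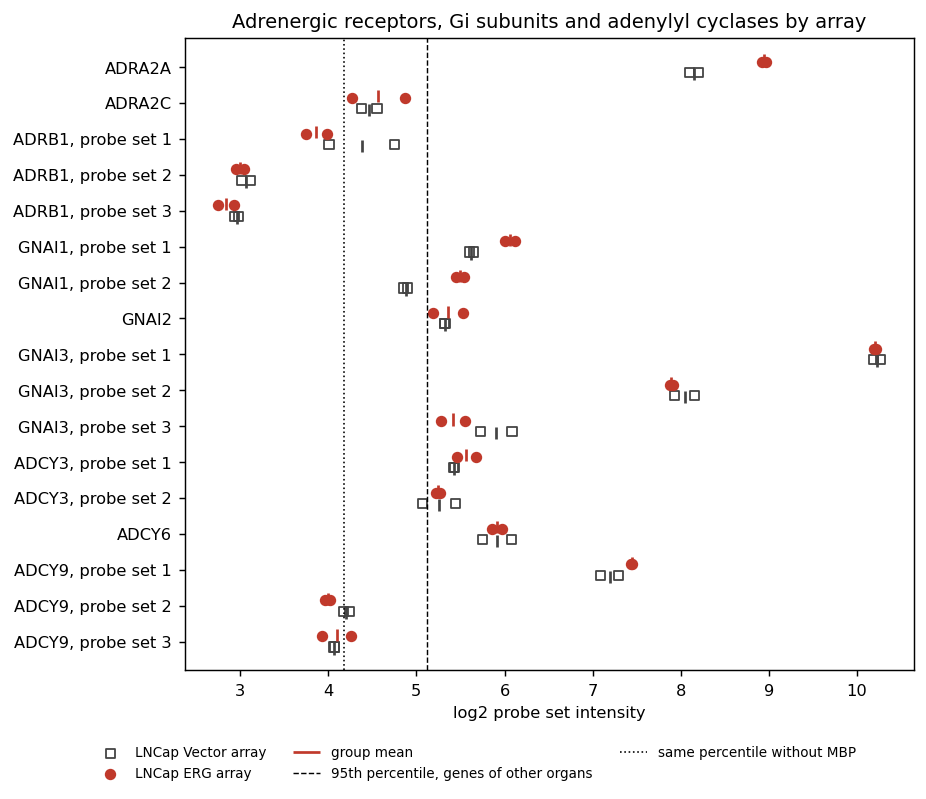
Log2 intensity on the x axis, for the 17 probe sets of the 9 members (y axis, a gene's probe sets numbered from the brightest in LNCap Vector). Filled circles are the 2 LNCap ERG arrays, open squares the 2 LNCap Vector arrays, short lines the group means, the dashed line the background level of 5.11 and the dotted line the same percentile without MBP, 4.18. ADRA2A and both GNAI1 probe sets have all circles to the right of all squares, while ADRA2C and ADRB1 lie left of the dashed line.

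ADRA2A, the alpha-2A receptor, had 1 probe set (209869_PM_at), above the background level in every array. Its log2 intensity was 8.97 and 8.92 in the LNCap ERG arrays and 8.20 and 8.10 in the LNCap Vector arrays, or 501 and 483 against 294 and 274 on the linear scale. The gap between the groups was far wider than the distance between the arrays of either group. The means were 8.94 ± 0.04 and 8.15 ± 0.07 (SD, n = 2 each), a 1.74-fold higher level in LNCap ERG with a log2 fold change of 0.80 (standard error 0.09). With any 1 array left out the log2 fold change was 0.74 to 0.85. It ranked 19 from the top among the 15838 probe sets above the background level in both groups.

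The genes whose brightest probe set was most like ADRA2A over the 4 arrays were MIR210HG, PARP8, CAMK2N1, RASSF2 and PFKFB4. Likeness was the Euclidean distance between the 4 deviations from each probe set's mean, among 9945 genes above the background level in both groups, and was 0.07 for MIR210HG and 0.13 for PFKFB4. Their log2 fold changes ran from 0.68 for CAMK2N1, an inhibitor of the calcium and calmodulin dependent kinase, to 0.84 for RASSF2, a Ras association domain protein. MIR210HG, the host transcript of a microRNA induced by hypoxia, had 0.76, and PFKFB4, an enzyme that sets the level of fructose 2,6-bisphosphate, had 0.76. As the measure uses the 4 arrays of 1 comparison, it mostly picks genes with a difference of the same size.

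ADRA2C, the alpha-2C receptor, had 1 probe set, below the background level but above the percentile without MBP in both groups. It read 4.87 and 4.27 in the LNCap ERG arrays and 4.38 and 4.55 in the LNCap Vector arrays. The groups overlapped, since the LNCap ERG arrays held both the highest and the lowest value. Its log2 fold change was 0.10 (standard error 0.21), and -0.20 without the first LNCap ERG array.

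ADRB1, the beta-1 receptor, had 3 probe sets, all below the background level in both groups. The brightest read 3.98 and 3.75 in the LNCap ERG arrays and 4.01 and 4.75 in the LNCap Vector arrays. Both LNCap ERG values were below both LNCap Vector values, by a small margin for the first LNCap Vector array. The log2 fold change of -0.52 (standard error 0.25) was -0.15 without the second LNCap Vector array. The other probe sets had log2 fold changes of -0.06 and -0.12 at means of 2.84 to 3.06. Values this near the background give no exact size.

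Among 8 adrenergic receptors measured, by 16 probe sets, ADRA2A was the one with a probe set above the background level. The others, beside ADRA2C and ADRB1, were ADRA1A, ADRA1B, ADRA1D, ADRA2B and ADRB3. Of their 11 probe sets the means ran from 2.83 to 4.42, and that of ADRA2B lay above 4.18. By limma 0 of the 11 passed at an adjusted p of 0.05 over all probe sets, nor did any at an unadjusted p under 0.05 (0 of 11), and their median log2 fold change was -0.03.

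**Figure D2:**
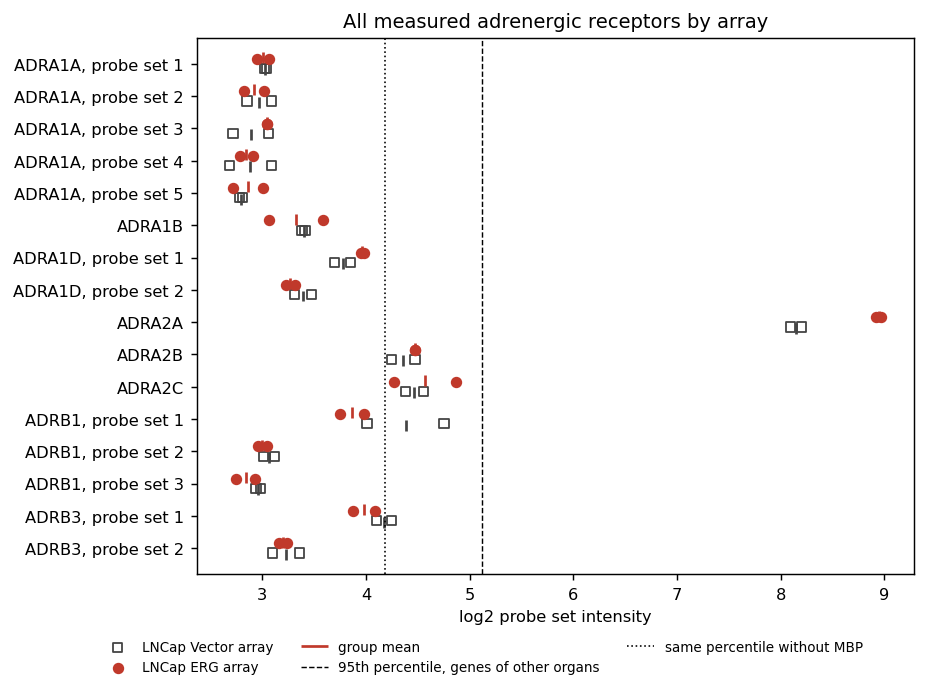
Log2 intensity on the x axis, for the 16 probe sets of 8 adrenergic receptors (y axis, a gene's probe sets numbered from the brightest in LNCap Vector). Filled circles are LNCap ERG arrays, open squares LNCap Vector arrays, short lines group means, the dashed line the background level of 5.11 and the dotted line the percentile without MBP, 4.18; ADRA2A lies at 8.10 to 8.97 and all others left of the dashed line.

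GNAI1, an inhibitory G alpha subunit, had 2 probe sets, and they read alike. The first (209576_PM_at) read 6.11 and 6.01 in the LNCap ERG arrays and 5.60 and 5.65 in the LNCap Vector arrays. The second (227692_PM_at) read 5.54 and 5.45 against 4.86 and 4.90. At both, all LNCap ERG values were above all LNCap Vector values, with gaps wider than the distance within a group. The first had means of 6.06 ± 0.08 and 5.62 ± 0.03 (SD, n = 2 each), 1.35-fold higher in LNCap ERG, with a log2 fold change of 0.43 (standard error 0.09) and a rank of 133 from the top among probe sets above the background level. The second had 5.50 ± 0.06 and 4.88 ± 0.03 (SD, n = 2 each), 1.53-fold higher, with a log2 fold change of 0.62 (standard error 0.09); its LNCap Vector mean lay below the background level, so the size is uncertain. With any 1 array left out the log2 fold changes were 0.38 to 0.49 and 0.58 to 0.66.

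GNAI2, the next inhibitory subunit, had 1 probe set near the background level. It read 5.53 and 5.19 in the LNCap ERG arrays and 5.32 in each LNCap Vector array. The LNCap Vector values lay between the LNCap ERG values. The log2 fold change was 0.04 (standard error 0.13), and -0.13 without the first LNCap ERG array.

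GNAI3, the last of these subunits, had 3 probe sets that differed. The brightest read 10.22 and 10.19 in the LNCap ERG arrays and 10.18 and 10.27 in the LNCap Vector arrays, and overlapped (log2 fold change -0.02, standard error 0.09). The second read 7.87 and 7.91 against 7.93 and 8.15, and the third 5.28 and 5.56 against 5.73 and 6.09. Both of these were lower in LNCap ERG without overlap, the second by a margin narrower than the spread within LNCap Vector. The third had means of 5.42 ± 0.19 and 5.91 ± 0.25 (SD, n = 2 each), 1.40-fold lower in LNCap ERG, with a log2 fold change of -0.49 (standard error 0.16), and the second had -0.15 (standard error 0.11). Without 1 array the third ran from -0.66 to -0.31. The brightest and the second are of the kind marked as shared by several transcripts, and the third is not. The mean over the 3 probe sets had a log2 fold change of -0.22.

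Among the adenylyl cyclases, which make cyclic AMP from ATP, differences were small. ADCY9 at its brightest probe set read 7.44 in each LNCap ERG array and 7.30 and 7.09 in the LNCap Vector arrays. Both LNCap ERG values were higher, 1.19-fold on average (7.44 ± 0.005 and 7.19 ± 0.14, SD, n = 2 each), with a log2 fold change of 0.25 (standard error 0.10) that was 0.14 to 0.35 with an array left out. Its other 2 probe sets, below the background level, had -0.21 without overlap and 0.03 with overlap, so that the mean over the 3 had 0.02.

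ADCY3 had 2 probe sets. The first read 5.67 and 5.46 in the LNCap ERG arrays and 5.43 and 5.42 in the LNCap Vector arrays, higher by a narrow margin (log2 fold change 0.14, standard error 0.11), and the difference was 0.03 without the first LNCap ERG array. The second overlapped, with -0.01 (standard error 0.14). ADCY6 had 1 probe set that read 5.97 and 5.86 in the LNCap ERG arrays and 5.75 and 6.08 in the LNCap Vector arrays, with a log2 fold change of 0.002 (standard error 0.13). The second ADCY3 probe set and that of ADCY6 had LNCap Vector arrays on both sides of the LNCap ERG arrays.

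**Figure D3:**
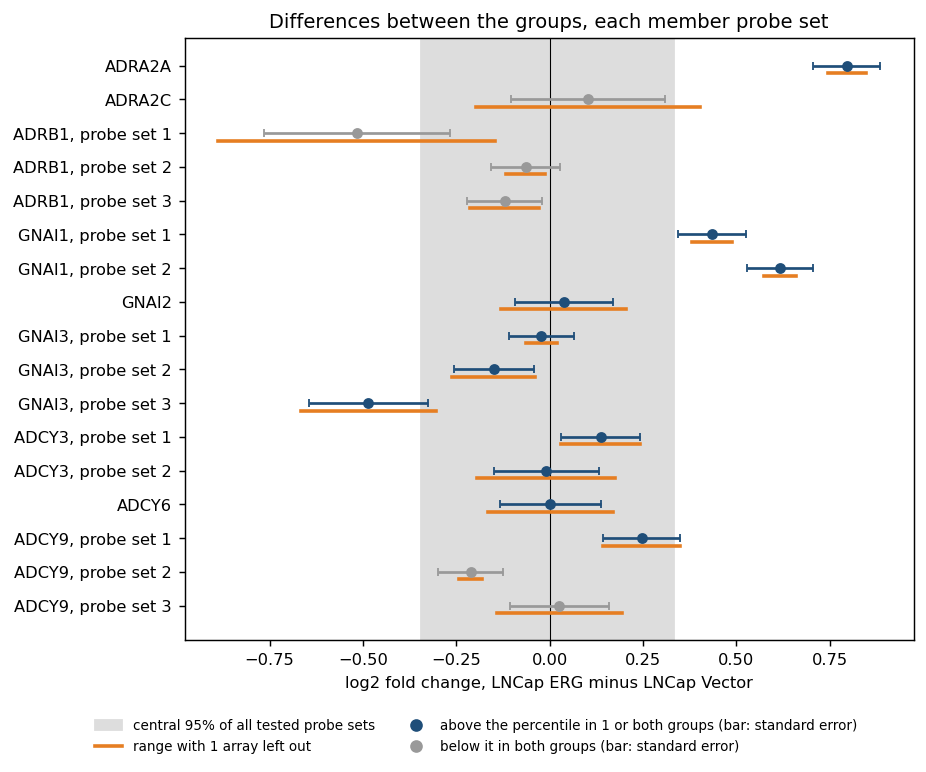
Log2 fold change of LNCap ERG minus LNCap Vector (x axis) for each member probe set (y axis), with the standard error from the fit as a bar and the range with 1 array left out as a thick line below it. The shaded band holds the central 95% of all probe sets tested, -0.34 to 0.33. ADRA2A, both GNAI1 probe sets, the brightest ADRB1 probe set and the third GNAI3 probe set lie outside it.

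The central 95% of all 39464 probe sets had log2 fold changes of -0.34 to 0.33, and 5 of the 17 member probe sets lay outside it. These were ADRA2A (0.80) and the GNAI1 pair (0.43 and 0.62) above, and the third GNAI3 (-0.49) and the dim ADRB1 probe set (-0.52) below. Over the probe sets above the background level in both groups the range was -0.35 to 0.32, and 3 of the 10 such member probe sets lay outside it. Since the members were chosen with these values known, neither count can show an excess. The pooled SD between arrays of a group ran from 0.04 for a dim ADCY9 probe set to 0.39 for that ADRB1 probe set, with a median of 0.11 over the members and 0.10 over all probe sets. Among the members, no gene beside ADRA2A and GNAI1 was higher at every one of its probe sets.

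The wider pathway was read from 84 further genes with 230 probe sets. By limma 0 rose and 0 fell at an adjusted p of 0.05 over all probe sets. At an unadjusted p under 0.05, 10 probe sets were higher and 13 lower, where 4.3% and 4.41% of all were. With the methods' t-test these numbers were 6 and 8, against 3.65% and 3.69% of all. Without overlap, 40 were higher and 43 lower, where 18.9% and 20.1% of all were. The median log2 fold change was 0.01.

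The remaining G alpha subunits (10 genes, 39 probe sets) had 0 probe sets higher and 3 lower by the unadjusted p. All 3 were of GNAQ, the subunit that activates phospholipase C. Its leading probe set was at 6.07 ± 0.14 in LNCap ERG and 6.69 ± 0.09 in LNCap Vector (SD, n = 2 each), a log2 fold change of -0.62 with a standard error of 0.11 (limma, adjusted p = 0.41). The 5 GNAQ probe sets ran from -0.62 to -0.07, 3 of them without overlap. GNAS, the stimulatory subunit to which beta receptors couple, and GNAZ, a relative of the Gi subunits, were above the background level; chosen after their values were seen, the GNAZ probe set 204993_PM_at had 0.09 (adjusted p = 0.81) and the brightest GNAS probe set had 0.02 (adjusted p = 0.98) from limma.

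The G beta and gamma subunits (17 genes, 35 probe sets), which leave the alpha subunit when a receptor is active, had 3 probe sets higher and 3 lower by that measure. GNB4, a beta subunit, had the largest difference without overlap, from 9.19 ± 0.06 in LNCap Vector to 8.51 ± 0.08 in LNCap ERG (SD, n = 2 each), 1.60-fold lower. Its log2 fold change was -0.68 with a standard error of 0.09 (limma, adjusted p = 0.32), and its 3 probe sets ran from -0.68 to -0.14. With trended and robust moderation, under which 0.223% of all probe sets passed, this GNB4 probe set was the 1 of the 230 that did.

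The other adenylyl cyclases (7 genes, 16 probe sets) were mostly dim, and ADCY1 alone had probe sets above the background level. With the 3 members, 4 of 10 cyclases had one. No cyclase outside the members met the rule for being named.

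Protein kinase A, its inhibitors and the cyclic AMP exchange factor RAPGEF3 (10 genes, 24 probe sets) had 2 probe sets higher and 1 lower by that measure. PKIB, an inhibitor of the kinase, had -0.38 on the log2 scale (standard error 0.10; limma, adjusted p = 0.50) at a probe set with the LNCap ERG mean below the background level, and -0.15 at its bright one. PRKAR1B, a regulatory subunit of the kinase and chosen after its values were seen, had the largest difference without overlap of this list, but both group means were below the background level. It read 5.03 and 4.96 in the LNCap ERG arrays and 4.56 and 4.35 in the LNCap Vector arrays. The difference of 0.54 on the log2 scale (standard error 0.11) had an adjusted p of 0.43 by limma, and its other probe set overlapped, with 0.24. The receptor kinases and arrestins (5 genes, 17 probe sets) had 0 higher and 2 lower. GRK3, a kinase that switches off occupied receptors, had -0.41 (standard error 0.10, adjusted p = 0.48), and its 3 probe sets ran from -0.41 to -0.01.

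The RGS and GPSM proteins (19 genes, 56 probe sets), which regulate Gi subunits, had 5 probe sets higher and 2 lower by that measure. GPSM2, which binds the resting form of Gi alpha, had -0.48 (standard error 0.15; limma, adjusted p = 0.52) at a probe set near the background level. Its 4 probe sets ran from -0.48 to -0.02, the last value at a bright probe set with overlap. GPSM1, a relative of GPSM2 and chosen after its values were seen, had 0.32 (standard error 0.10; limma, adjusted p = 0.51) at a bright probe set, at 8.31 ± 0.07 in LNCap ERG against 7.99 ± 0.08 in LNCap Vector (SD, n = 2 each). The CREB family and genes induced by cyclic AMP (11 genes, 32 probe sets) had 0 higher and 1 lower. CREM, a CREB relative, had -0.26 (standard error 0.14, adjusted p = 0.65), which was -0.08 without the first LNCap ERG array, and its 6 probe sets ran from -0.32 to 0.11. The median log2 fold change of this list was -0.001.

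**Figure D4:**
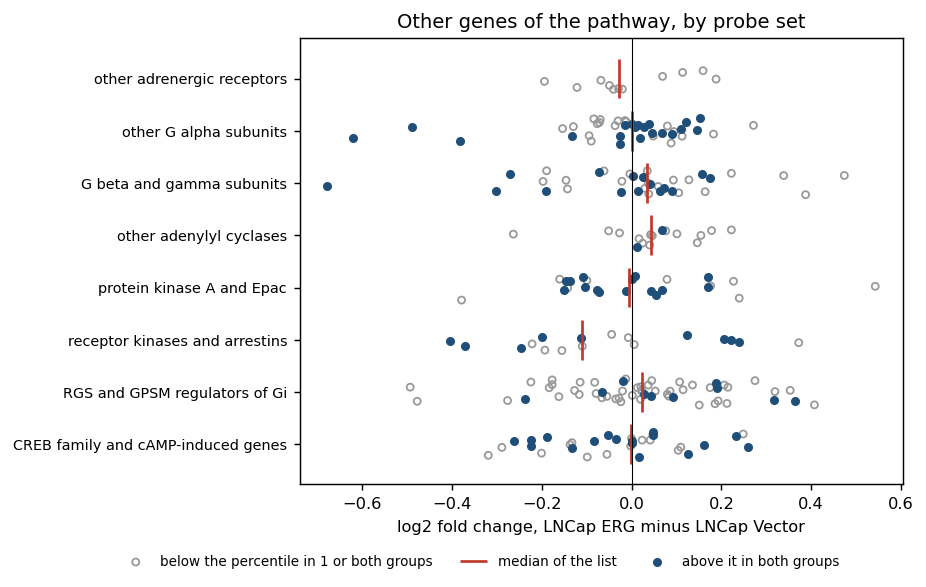
Log2 fold change of LNCap ERG minus LNCap Vector (x axis) for the 230 probe sets of 84 other pathway genes, by list (y axis, points spread vertically at random within a list). Filled points lie above the background level in both groups, open points do not, and the red lines are list medians. The medians lie between -0.11 and 0.04, and the leftmost filled points are GNB4 (-0.68) and GNAQ (-0.62).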

How the data were processed

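RNA of 4 samples was measured on Affymetrix arrays. The deposited values are probe set intensities on a linear scale, as read from their range, which the authors made with dChip and RMAexpress. The versions of both, and the steps run inside RMAexpress, were not given in the sources used here. Intensities were taken to log2. Of 51965 probe sets, 39466 named 1 gene in the platform annotation, 838 several and 11661 none, and 2 with a missing value were left out. The Entrez identifiers of 39415 were found in the RefSeq gene table, and none needed a new symbol. Every probe set naming 1 gene (39464) was fitted in R 4.3.3 with limma 3.58.1 (lmFit, then eBayes), with 2 residual and 3.50 prior degrees of freedom and Benjamini-Hochberg adjustment over all of them. Plots and sequence searches used Python 3.11.15, pandas 2.3.3 and matplotlib 3.10.9.

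The members and lists were chosen with earlier results of these data known. Named beside the members were ERG, of each pathway list any gene past the threshold and the gene with the largest change without overlap and with a group mean above the background level, and the 5 genes nearest to ADRA2A in pattern; other names are given as chosen after their values were seen. Alternatives were other moderation, other probe set choices, an added offset, quantile and housekeeping scaling, the methods' t-test, a replicate block and the omission of single arrays. Arrays have no read depth, so their number limits the precision.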

Additional observations from a re-analysis of the deposited data

How the results depend on the processing

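Over all 39464 probe sets, 0 passed in each direction, and also with quantile normalization again, with housekeeping centring, by the methods' t-test once Benjamini-Hochberg adjusted, and without any 1 array (0 to 0). Numbers higher and lower were 49 and 39 with trended and robust moderation, 3 and 2 with 16 added to the linear intensity, 1 and 1 without probe sets below the median intensity, 1 and 1 with 1 probe set per gene, and 6 and 8 with each gene's probe sets averaged. The cause was not tested. Of the 17 member probe sets 1 passed with trended and robust moderation, where 0.223% of all did, and no member passed in any other setting. The members were proposed with this comparison seen, so that pass is no evidence for any 1 of them. Among the other pathway genes, 1 probe set passed lower with trended and robust moderation and 0 in all other settings. The replicate numbers marked no shared culture in the labels, deviations of same-numbered arrays correlated at 0.07 over all probe sets and at 0.14 over the 15838 above the background level in both groups, and with the replicate block 0 probe sets passed in each direction.

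Member probe sets without overlap numbered 5 higher and 5 lower under each rescaling. Before rescaling, 18.9% and 20.1% of all probe sets were without overlap in these directions. With an array left out the members numbered 5 to 8 and 5 to 9. As 3 arrays overlap less easily by construction, and no share over all probe sets is given for 3 arrays, those counts cannot be judged. The members' median log2 fold change was -0.05 to 0.06 with an array left out, 0.02 after quantile normalization and -0.02 with housekeeping centring. Of the 17 member probe sets, 6 changed sign in at least 1 of these settings, and ADRA2A and GNAI1 were not among them. Fits without an array have 1 array in a group, assumed to vary like the others.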

Other observations

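Probe sets of a gene disagreed in sign at several pathway genes. ARRB1, RGS5 and GRK6, regulators of receptor signalling, are examples chosen after their values were seen. The receptor kinase GRK6 had log2 fold changes of 0.24 and -0.25 at probe sets above the background level, each without overlap. Its other probe sets had 0.21 and 0.12, both higher without overlap. ARRB1, the arrestin that binds phosphorylated beta receptors, had log2 fold changes of 0.22 and -0.37 at 2 probe sets above the background level, each without overlap between the groups. Its other probe sets were all negative, with -0.22 without overlap, and -0.11 and -0.11 with overlap. RGS5, which speeds up the resting of Gi and Gq subunits, had 0.35 and -0.49 at 2 dim probe sets, each without overlap.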
